A study of Felis catus with 77 samples.

Results

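The comparison set the tumor (T) libraries of the 7 cats in cluster C2 (cats 11 to 17) against those of the 18 cats in cluster C1 (cats 5, 6, 8, 9, 18 to 26, 29 and 31 to 34), 25 of the 77 RNA-seq libraries of a study of feline fibrosarcoma (FSA). The clusters C1, C2 and C3 were drawn by the study on a principal component analysis of these same tumor libraries. The labels name no clusters, so membership followed the list of cases given for this comparison, and the study's own C1 may not hold every one of these 18 cats. The C2 to C1 difference in tumor is therefore described here without a test. The 40 libraries of normal tissue (NT) of the same cats played no part in drawing the clusters, and the same difference was tested in them: adipose tissue (AT, 5 C2 and 8 C1 libraries), connective tissue (CT, 3 and 7) and skeletal muscle (SM, 3 and 14). All 7 C2 cats and 16 of the 18 C1 cats had at least 1 NT library. Cat patients with spontaneous tumors were the source of every group, and no treatment, genotype or age separates the clusters in the labels. Breed and age are given in the study's list of cases. There all C2 cats were European shorthair, C1 also held Maine Coon and Persian mix cats, and the age ranges overlapped. C2 held 6 male cats and 1 female cat, and C1 held 4 and 14. The remaining cluster, C3, served only as an outside reference through its 12 libraries.

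FSA is a tumor of the skin and subcutis of cats whose malignant cells resemble fibroblasts and lay down collagen-rich matrix. It infiltrates the surrounding fat, fascia and muscle, so tumor and adjacent normal tissue lie side by side in one surgical specimen. In laser-capture microdissection (LCM) a microscope-guided laser cuts chosen areas from a stained section, and here T, AT, CT and SM were captured separately from formalin-fixed, paraffin-embedded (FFPE) blocks. The question asked of each gene was whether C2 and C1 cats differed in T alone or by a shift common to all captured tissues. In bulk libraries of this kind, fewer cells of a type and less RNA per cell cannot be told apart.

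Values were whole-number read counts per Ensembl gene identifier (19587 identifiers, 19521 with a count in C2 or C1 libraries). The count tables carry no symbols and none of the 39307 genes of the reference matched an identifier, so the differences are described by number, level and direction, tissue markers could not be checked, and 4 identifiers are given in full. Library totals differed between the clusters. They were 957697 to 7876394 counts in C2 tumors (median 5102237) and 5081459 to 14585035 in C1 tumors (median 10181688). The median totals of C2 and C1 were 1768375 and 2908520 in AT, 1351243 and 4910009 in CT, and 5238193 and 13961162 in SM. In all, 10 of the 18 C2 libraries held fewer than 3000000 counts. No pair of libraries was identical. The AT library of cat 5 is called tumor in one label and adipose in another; across 13978 genes its log2 profile had a correlation of 0.906 with the average remaining AT library and of 0.756 with the average tumor, and the results of AT and pooled NT are given with and without it.

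The tumor difference was mostly one of genes higher in C2. Of 15115 genes with enough counts in T, 3033 (20.1%) were over 2-fold higher in C2 (log2 fold change above 1) and 633 (4.19%) over 2-fold lower. The nearest values around the limits were 1.00026 and 0.99896 above, and -1.00079 and -0.99992 below. For 368 of the genes that were higher (2.43% of all genes), each of the 7 C2 tumors lay above each of the 18 C1 tumors. Among the genes that were lower, 0 were without overlap. Genes higher in C2 made up 82.7% of those past either limit, against 95.8% when libraries were scaled to their totals only (4268 higher and 185 lower) and 91.0% with DESeq2 (3447 and 340). Leaving out any one of the 18 C1 tumors gave 2952 to 3112 genes higher and 548 to 667 lower. Without the trimmed mean scaling the median difference of all genes in T moved from -0.06 to 0.40 on the log2 scale.

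Most of the genes higher in C2 tumors had few counts in C1 tumors. Of the 3033, 2014 fell short of 10 counts in most C1 tumors, and 1019 did not. The share of all 15115 genes that fell short there was not counted. With a filter that asked for 10 counts in a fraction of at least 0.5 of the libraries of each cluster, 1203 genes were higher and 388 lower. When all libraries were thinned at random to 847003 counts, the smallest total, 589 were higher and 253 lower. Genes that entered the list only through the C2 libraries had to be higher there, and their number describes how many such genes there were and nothing further.

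To part a difference of the tumors from one of the specimens, the same comparison was made in each NT. In CT, 3156 of 16300 genes were called higher in C2 cats (19.4%) and 816 lower (5.01%), by edgeR's quasi-likelihood test at an adjusted p under 0.05 and a log2 fold change beyond 1. The smallest adjusted p was 6.01e-05. Many of these genes passed the count filter only through the C2 libraries. When both clusters had to pass it, 335 genes were called higher and 473 lower in CT, so that the lower calls were then the more numerous, and over the genes tested in all 4 tissues the calls were 851 and 813. In SM, 1789 of 15023 genes were called higher (11.9%) and 94 lower (0.626%), with a smallest adjusted p of 5.67e-07 by the same edgeR test. With the filter that both clusters had to pass, the SM calls were 73 higher and 0 lower, and over the genes tested in all 4 tissues 680 and 90. Leaving out the SM library of cat 11 brought the SM calls to 989 higher and 8 lower. In AT, 0 of 12336 genes were called in either direction by edgeR, where the smallest adjusted p was 0.0866 and 1222 genes had an unadjusted p under 0.05; DESeq2 called 107 higher and 4 lower. Without the AT library of cat 5, the edgeR test called 65 of 12150 genes higher in AT (0.535%) and 0 lower, with a smallest adjusted p of 0.000267.

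All 40 NT libraries were then fitted together, with tissue as a term and the cat as a block. In this limma fit 2530 of 13902 genes were called higher in C2 cats (18.2%) and 17 lower (0.122%), the smallest adjusted p being 3.5e-15. Without the AT library of cat 5 it called 2374 higher and 19 lower. Libraries of one cat resembled each other beyond tissue and cluster, with a fitted correlation of 0.151. The low-count filter weighed on this count as on the tumor count, since 442 genes were called higher when both clusters had to pass it and 784 when the libraries were thinned. Cluster and sex overlapped strongly in NT. All C2 cats with a CT or SM library were male, as were 1 of the 7 C1 cats with CT and 3 of the 14 with SM. With sex as a covariate, the genes called higher came to 0 in CT (7 lower) and 7 in SM (0 lower) by edgeR, while 1766 were called higher in pooled NT by limma. In those fits 6523 genes in CT and 4713 in SM were over 2-fold higher in C2, and an unadjusted p under 0.05 was reached by 3867 and 2850 genes, with smallest adjusted p of 0.0447 and 0.0443. In the gene-wise CT fit 1 male C1 library faced 3 male C2 libraries, with no female C2 library, so the cluster and sex terms leaned on that library. In the tumors, 3313 genes were over 2-fold higher in C2 with sex in the fit.

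Among the 12126 genes with enough counts in all 4 tissues, 1361 (11.2%) were over 2-fold higher and 495 (4.08%) over 2-fold lower in C2 tumors. The 1361 higher genes had a median log2 difference of 2.04 in T. In the NT of the same cats the medians of these genes were 1.28 in AT, 2.23 in CT, 2.12 in SM and 1.90 in pooled NT, whereas the medians of all 12126 genes were 0.00, -0.07, -0.10 and 0.06. They were over 2-fold higher in 56.6% of cases in AT, 74% in CT and 67% in SM, beside 13.7%, 20% and 17.7% of all genes. Called higher in the tests were 547 of them in CT (40.2%, beside 7.02% of all genes), 459 in SM (33.7%, beside 5.61%) and 772 in pooled NT (56.7%, beside 12%). In AT 0 were called. Without the library of cat 5, the 1193 of them tested in AT had a median of 1.17, 53.8% were over 2-fold higher (beside 13.4% of all genes) and 49 were called (4.11%, beside 0.488%). All 3 NT were over 2-fold higher for 595 of the 1361 genes (43.7%, beside 7.94% of all genes), and none of the 3 for 175 (12.9%, beside 71.5%). Of the 1361 genes, 591 fell short of 10 counts in most C1 tumors, and 770 did not. The share of all 12126 genes that fell short was not counted. The median gene of the 1361 had a mean of 24.4 counts in C1 tumors, beside 258.5 for that of all 12126 genes. In C2 tumors these values were 52.3 and 140.6. The count filter worked by cluster in NT as well, so C2 libraries alone could admit a gene there. The shares of all genes do not correct for that.

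Each gene was next classed by its difference in T, estimated by edgeR, and in pooled NT, estimated by limma. Over 2-fold lower were 0.487% of all genes in pooled NT, beside 2.33%, 11.6% and 6.17% in AT, CT and SM by edgeR. Over 2-fold higher were 16.6%, beside 13.7%, 20% and 17.7%. What part the unlike estimates and the pooling played in the classes was not tested. Of the 1361 genes higher in C2 tumors, 927 (68.1%, beside 16.6% of all genes) were shared, that is over 2-fold higher in pooled NT too. Without the AT library of cat 5 the shared genes were 917. Another 249 (18.3%) were tumor-only, with a pooled NT difference within 0.5 of 0 on the log2 scale. The remaining genes lay between these limits (181) or were over 2-fold lower in NT (4). For the tumor-only class the share of all genes was not counted, here or in the settings below. The quartiles of all 12126 genes in pooled NT were -0.24 and 0.60, so a large part of them met that limit. The shared portion depended on the low-count genes. With the filter that both clusters had to pass, 469 genes were higher in C2 tumors, of which 151 (32.2%, beside 5.57% of all 9404 genes over 2-fold higher in NT) were shared and 184 (39.2%) tumor-only. After thinning, 66 of 232 (28.4%, beside 3.69%) were shared and 101 (43.5%) tumor-only. The median NT difference of the genes higher in T was 0.63 with that filter and 0.53 after thinning, beside -0.07 and -0.08 over all genes.

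**Figure D1:**
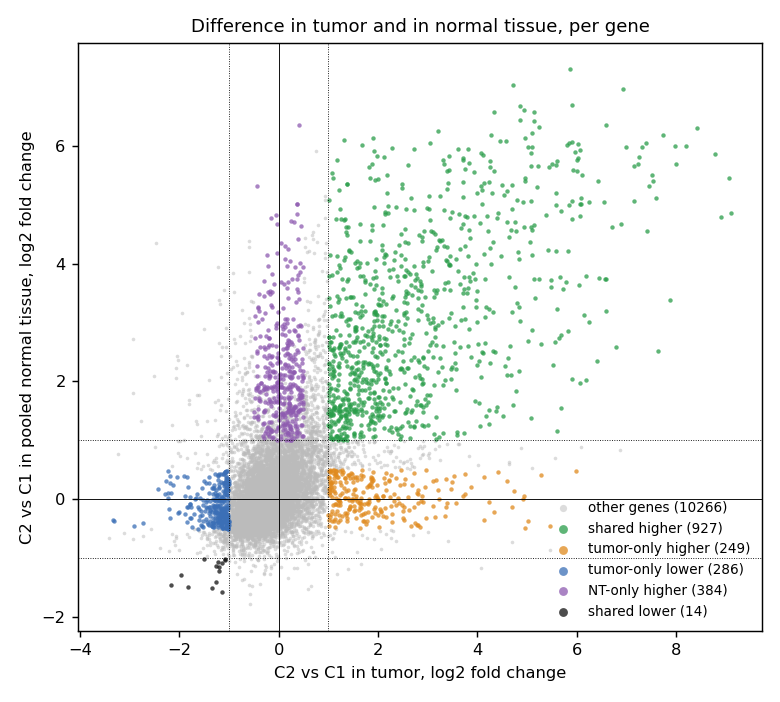
Each point is 1 of 12126 genes. The C2 to C1 log2 fold change in tumor (edgeR) is on the horizontal axis and that in pooled normal tissue (limma) on the vertical axis. Dotted lines mark log2 fold changes of 1 and -1. The 927 shared higher genes fill the upper right, the 249 tumor-only higher and 286 tumor-only lower genes lie along the horizontal axis, and only 14 genes are shared lower.

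The genes lower in C2 tumors were seldom over 2-fold lower in pooled NT, though more often than all genes. Of the 495, 14 (2.83%) were over 2-fold lower in pooled NT as well, beside 0.487% of all genes. The tumor-only class held 286 (57.8%), 148 lay between the limits, and 47 (9.49%, beside 16.6% of all genes) were over 2-fold higher in NT. A large part of all genes also met the tumor-only limit, with quartiles of -0.24 and 0.60 in pooled NT. The 57.8% can therefore not be read as particular to the lower genes. The median log2 difference of the 495 genes amounted to -1.21 in tumor and, among the NT, to -0.15 (AT), -0.65 (CT) and -0.40 (SM). In CT 174 of them (35.2%, beside 11.6% of all genes) were over 2-fold lower and 114 (23%, beside 6.7%) were called lower by edgeR. In AT 30 of them (6.06%, beside 2.33% of all genes) and in SM 91 (18.4%, beside 6.17%) were over 2-fold lower. The tests called 8 of them lower in SM (1.62%, beside 0.742%) and 6 in pooled NT (1.21%, beside 0.124%). This class hung on the scaling, as 73 genes were tumor-only lower when libraries were scaled to totals alone, and 163 with the filter that both clusters had to pass. A further 384 genes were called higher in pooled NT and within 0.5 of 0 in T, with medians of 0.11 (T), 1.44 (AT), 1.73 (CT) and 1.78 (SM).

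The levels of the classes differed. The median gene of the shared class had a mean of 17.9 counts per 1000000 counts of the library (CPM) in C2 tumors and 2.08 in C1 tumors, which came to 49.9 and 19.9 counts per library. The same genes had medians of 19.1 and 3.58 CPM in AT, 37.9 and 3.04 in CT, and 10.7 and 0.694 in SM of C2 and C1 cats. Tumor-only higher genes were at a like level in T, 19.1 and 3.51 CPM, but in AT they were at 27.3 and 27.6 and in SM at 19.99 and 13.2. In CT, however, they had medians of 35.6 and 14.6, and 98 of the 249 (39.4%, beside 20% of all genes) were over 2-fold higher there, with 33 (13.3%, beside 7.02%) called. The word tumor-only thus refers to pooled NT and not to each NT. Tumor-only lower genes were expressed in both clusters, with medians of 32.8 CPM in C2 and 61.9 CPM in C1 tumors. For them too the word refers to pooled NT. In CT 72 of the 286 (25.2%, beside 11.6% of all genes) were over 2-fold lower and 31 (10.8%, beside 6.7%) were called lower.

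The 2 higher classes were also spread unlike each other over the 7 tumors. Of the 927 shared genes, 130 (14%) were above every C1 tumor in all 7 C2 tumors, and 74 (7.98%) in none. Among all 12126 genes 138 (1.14%) were so in all 7, 2061 (17%) in a single tumor and 8563 (70.6%) in none. Of the 249 tumor-only genes, 3 (1.2%) were above every C1 tumor in all 7 and 31 (12.4%) in none, while 82 (32.9%) were so in a single tumor. These single tumors were mostly those of cat 14 (42 genes) and cat 11 (26 genes). The tumor of cat 14 held 86 genes at over 4 times the level of all 24 other tumors and that of cat 11 held 75, and the other 5 C2 tumors held between 0 and 20. Among C1 tumors the highest number was 44, in cat 8. Of the tumor-only lower genes, 0 of 286 were below every C1 tumor in all 7 C2 tumors. Among all 15115 genes with enough counts in T, 0 were both over 2-fold lower and below every C1 tumor in all 7.

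The size of the shift was followed library by library, as the median over the 1361 higher genes of the difference from the C1 mean of the tissue (log2 CPM). It was 3.64, 2.82, 2.21, 2.14, 1.30, 2.52 and 3.41 in the tumors of cats 11 to 17, and between -0.55 and 0.62 in the 18 C1 tumors. These genes were chosen on the tumors, so the tumor values follow from the choice. The NT values follow from it in part, since C2 libraries alone could admit a gene in NT. With the filter that both clusters had to pass, the median pooled NT difference of the genes higher in T was 0.63, beside 1.90 here. In AT of C2 cats the shift was 2.17 (cat 12), 2.13 (cat 13), 0.65 (cat 15), 1.07 (cat 16) and 2.10 (cat 17), and in C1 cats it ran from -0.68 to 1.23. The upper end was the library of cat 5, and the next highest C1 value was 0.02. In CT it was 3.06, 2.53 and 2.90 in cats 13, 14 and 17, above a C1 range of -1.01 to 0.65. In SM it was 3.16, 1.49 and 2.14 in cats 11, 12 and 13, above a C1 range of -0.63 to 0.40. Cat 15 had the lowest value among the C2 libraries in both T and AT.

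**Figure D2:**
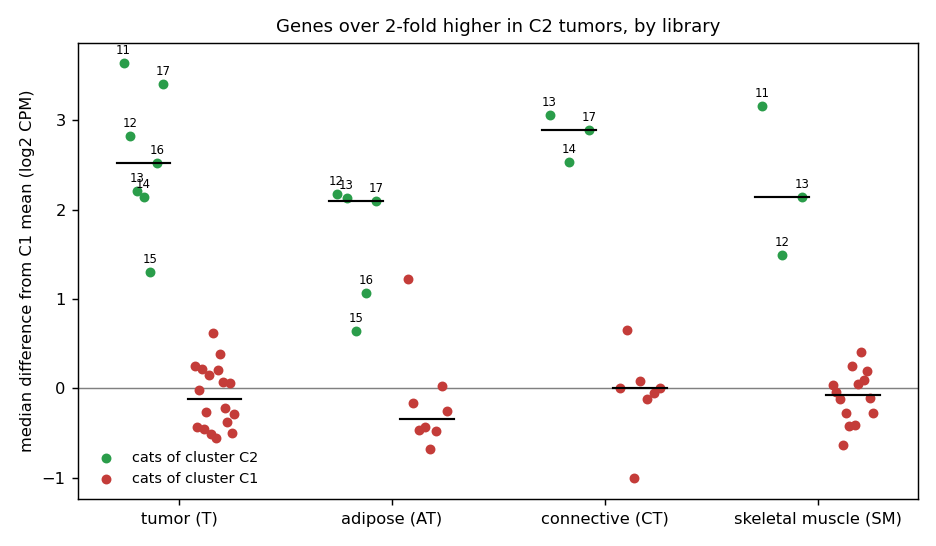
Each point is a library, and the vertical axis gives the median difference from the C1 mean of its tissue (log2 CPM) over the 1361 genes that were over 2-fold higher in C2 tumors; black lines are group medians and numbers name the C2 cats. All C2 libraries of CT and SM lie above all C1 libraries. In AT the C1 library of cat 5, at 1.23, lies above 2 of the 5 C2 libraries. The genes had to pass the count filter in each tissue, and C2 libraries alone could admit a gene.

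A measure that used no C2 or C1 value for its choice of genes was taken from C3. There were 1836 genes without a count in any of the 12 C3 libraries, 1773 of which had a count in C2 or C1 libraries. These genes received 9004, 3878, 2371, 921, 673, 2877 and 6704 CPM in the tumors of cats 11 to 17. In the 18 C1 tumors they received 33.6 to 419.7 CPM, with a median of 76.1. Every C2 tumor was above every C1 tumor, and the geometric means differed 33.9-fold. Counted in genes, 636 to 1520 of them had a count in a C2 tumor and 39 to 248 in a C1 tumor.

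The same genes were tested in NT. In AT they received 7026 (cat 12), 5475 (cat 13), 314 (cat 15), 914 (cat 16) and 5305 CPM (cat 17) in C2 cats and 31.97 to 1147.9 in C1 cats. The highest of the C1 values was that of cat 5, without which the highest was 94.5. The geometric means differed 25.7-fold (exact permutation test over libraries, two-sided p = 0.00233, adjusted over the 3 NT 0.0035). Without cat 5 all 5 C2 libraries lay above C1, with a 37-fold difference (exact permutation p = 0.00126, unadjusted and the smallest possible). In CT they received 11864 (cat 13), 8762 (cat 14) and 9272 CPM (cat 17), against 30.6 to 355.8 in C1, a 67.7-fold difference (exact permutation p = 0.00833, the smallest that 3 against 7 libraries allow, and the same after adjustment). In SM they received 5863 (cat 11), 708 (cat 12) and 1293 CPM (cat 13), against 7.10 to 62.0 in C1, a 92.0-fold difference (exact permutation p = 0.00147, the smallest possible, adjusted 0.0035). The C2 values thus did not overlap with C1 in CT and SM, and 3 of the 5 did not in AT.

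**Figure D3:**
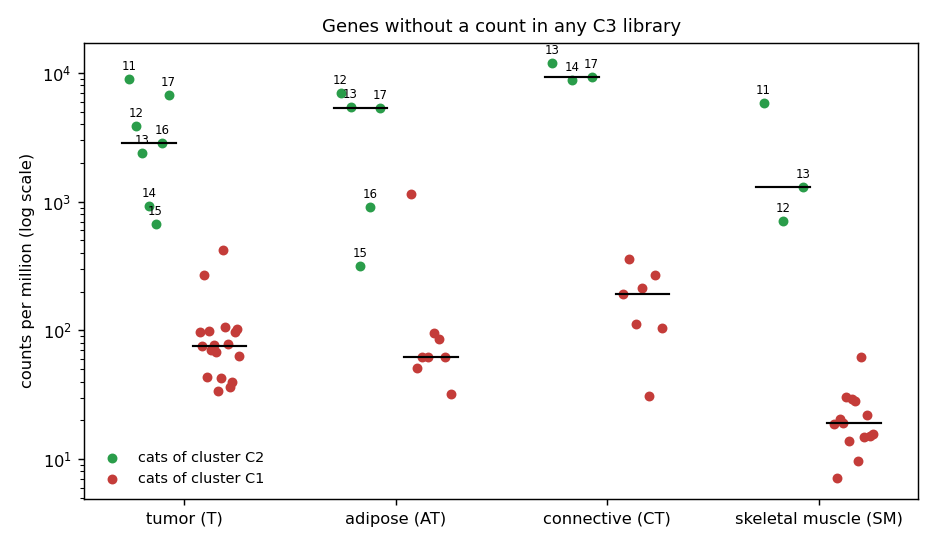
Each point is a library, and the vertical axis (log scale) gives the CPM that fell on the 1836 genes without a count in any C3 library; black lines are group medians and numbers name the C2 cats. C2 tumors lie at 673 to 9004 and C1 tumors at 33.6 to 419.7, and the separation recurs in CT and SM and, apart from the C1 library of cat 5 at 1147.9, in AT.

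Among C2 libraries, those with small totals had the higher values. The 10 C2 libraries with totals under 3000000 (847003 to 2113445) had 3878 to 11864 CPM, and the 8 with totals over it (5099044 to 7876394) had 314 to 2877 CPM. Of the C1 libraries, 5 had totals in the lower range (863878 to 2515975); cat 5 AT had 1147.9 CPM, and the other 4 had 62.3 to 112.3. The 42 C1 libraries with larger totals had 7.10 to 419.7 CPM over all tissues. Within AT of C1 cats, the smallest totals, those of cats 26 and 23, came with 85.3 and 94.5 CPM, the highest values after cat 5. Within C2 tumors the number of counts on these genes varied less than the totals, 5302 to 15590 counts or 2.94-fold, beside 8.22-fold for the totals. The difference was also read within each sex. The 6 male C2 tumors had 673 to 9004 CPM and the female one 2877, against 33.6 to 419.7 in 4 male and 36.1 to 268.9 in 14 female C1 tumors. In SM, where all 3 C2 cats were male (708 to 5863 CPM), the 3 male C1 cats had 9.63 to 29.4. In CT the male C1 library had 212.3 CPM, against 8762 to 11864 in the 3 male C2 libraries. In AT the female C2 library (914) lay within the range of the 7 female C1 libraries (31.97 to 1147.9, with cat 5 at the upper end), and the 4 male C2 libraries (314 to 7026) lay above the male C1 library (61.8). What part the library totals played was not tested.

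The difference between the clusters was then followed along the range of expression. Genes were binned by their mean CPM in the C3 libraries of the same tissue, and the mean CPM per gene was compared. In T, genes at 0 in C3 had a mean of 2.55 ± 2.03 CPM in C2 (SD, n = 7) and 0.103 ± 0.088 in C1 (SD, n = 18). Above that level the mean of C2 tumors was higher by a near-constant amount. This amount was 5.98 CPM for genes of up to 1 CPM and 7.38 for 1 to 3. It was 6.84 for 3 to 10, 6.07 for 10 to 30 and 6.10 for 30 to 100. As a ratio the same amounts declined from 8.68 to 3.42, 1.93, 1.32 and 1.12. In these bins 6, 6, 6, 4 and 2 of the 7 C2 tumors lay above all C1 tumors. Between 100 and 300 CPM the clusters differed by 0.71 CPM, and the 485 genes above 300 CPM were lower in C2, at 708 ± 131 CPM against 917 ± 86.7. As CPM sum to a fixed total, the differences below and above 300 CPM had to balance. Summed over genes, C2 tumors had 101310 CPM more below 300 CPM, and as much less above. Whether the gain or the loss came first was not tested.

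In NT the genes of low level were higher in C2 too, by amounts that differed between tissues. In CT the added amount was 11.1 CPM for genes at 0 and 16.8, 19.6, 16.9 and 15.1 CPM over the next 4 bins, then 9.45 for genes of 30 to 100 CPM, with all 3 C2 libraries above all C1 libraries in each of these bins. In SM it was 2.45 for genes at 0, then 4.49, 4.64, 4.46 and 3.99, and 1.59 for genes of 30 to 100 CPM, where 0 of the 3 C2 libraries lay above all C1. In AT it was 3.42, 5.18, 2.64, 4.58 and 4.83, and -0.25 for genes of 30 to 100 CPM. In the AT bins of 1 to 3 and 3 to 10 CPM, 0 of the 5 C2 libraries lay above all C1. Without cat 5 the AT amounts were 3.503, 5.25, 2.29, 4.52, 4.86 and -0.62. CT had the largest added amount in each of these bins and also the smallest C2 totals. Only 1 C3 library of CT was at hand for the binning, beside 5 in T and 3 each in AT and SM.

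**Figure D4:**
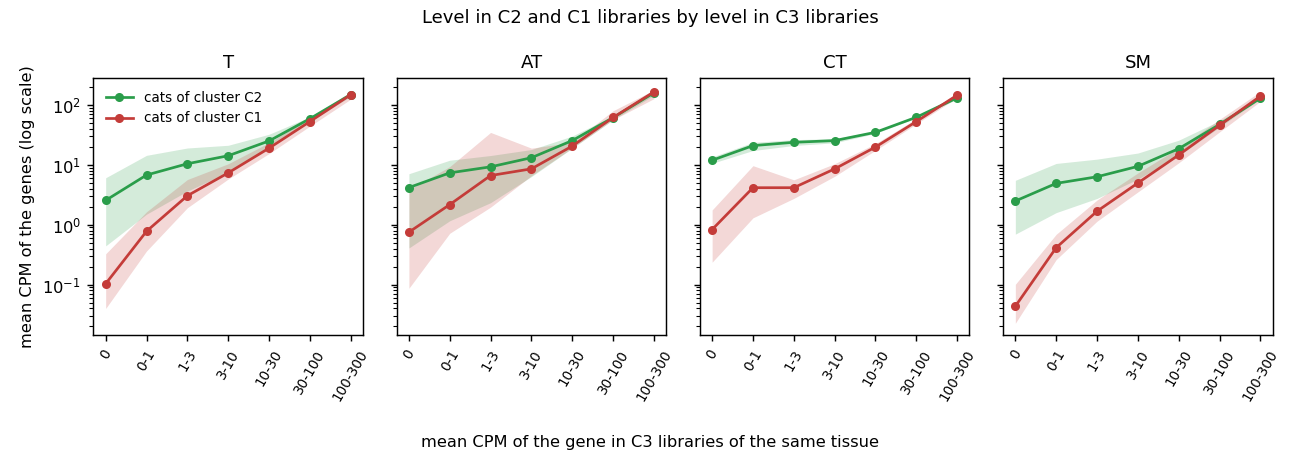
Mean CPM per gene (log scale) of C2 and C1 libraries in bins of the mean CPM of the gene in C3 libraries of the same tissue, for T, AT, CT and SM; points are means over libraries and bands span the lowest to the highest library. The C2 line lies above the C1 line for genes of low level in each tissue and meets it between 30 and 300 CPM. The bands overlap in AT, in T for genes above 0 CPM and in SM from 3 CPM, but not in CT for genes below 100 CPM.

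Whether the C2 difference itself differed between the 3 NT was tested as well. An interaction of cluster and tissue reached an adjusted p under 0.05 for 32 of 13902 genes (limma, smallest adjusted p 0.00232), with 1417 at an unadjusted p under 0.05. Of the 32, 27 had a larger C2 to C1 difference in CT than in AT and 22 a larger one in SM than in AT. Over all 13902 genes the median of these differences was -0.11 for CT over AT and -0.03 for SM over AT. Across the 12126 genes the tumor difference correlated with that in AT at 0.529, in CT at 0.658 and in SM at 0.613, which describes these libraries only, since the comparisons share cats and genes are not independent.

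The 4 identifiers were taken by a fixed rule, as those with the largest tumor difference in each direction among shared and among tumor-only genes with a mean of at least 50 counts in both clusters. The values of the shared and tumor-only higher ones rested on the tumor of cat 14. ENSFCAG00000018551, shared higher, had 54.3, 39.2, 20.97, 907.2, 15.2, 14.6 and 45.3 CPM in the tumors of cats 11 to 17, and 0 to 50.8 in C1 tumors (median 5.20). Its log2 difference in T was 3.98, and 1.56 without cat 14. In NT it was 77.3, 36.9, 10.2, 5.44 and 30.5 CPM in AT of cats 12, 13, 15, 16 and 17, where C1 had 0 to 11.04. In CT it was 96.8, 62.0 and 53.3 CPM in cats 13, 14 and 17 and 0 to 70.3 in C1, and in SM 30.95, 15.1 and 17.0 CPM in cats 11, 12 and 13 and 0 to 9.60 in C1. The C2 libraries overlapped with C1 in T, AT and CT but not in SM. The log2 difference in pooled NT was 3.38 (SE 0.68, limma adjusted p = 0.000124).

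ENSFCAG00000011354, tumor-only higher, had 51.2, 87.4, 4.51, 2054, 9.52, 11.6 and 28.3 CPM in the tumors of cats 11 to 17, and 0 to 43.5 in C1 tumors (median 2.79). The tumor of cat 14 stood far above the others, and 4 of the 7 C2 tumors lay within the C1 range of CPM. On the TMM-scaled log2 CPM used for overlap elsewhere, 2 of the 7 lay above every C1 tumor. Its log2 difference was 5.02 in T and 1.57 without cat 14. In NT the same identifier was at 41.5 to 193.2 CPM in AT of C2 cats and 49.2 to 157.8 in C1 cats, at 71.5 to 129.9 and 54.4 to 222.0 in CT, and at 27.1 to 52.8 and 10.4 to 85.1 in SM. The clusters overlapped in each NT, with a pooled log2 difference of -0.37 (SE 0.28, limma adjusted p = 0.40). Its level in most tumors of both clusters was thus under that in AT and CT.

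ENSFCAG00000050078, shared lower, had 633.8, 397.0, 454.5, 9.01, 417.7, 219.4 and 2260 CPM in the C2 tumors and 12.01 to 8050 in C1 tumors (median 1390). The tumor of cat 14 was here the lowest of all 25, and the other 6 lay within the C1 range. The log2 difference was -2.17 in T and -1.45 in pooled NT (SE 1.19, limma adjusted p = 0.453), so the NT difference was not called. By tissue it was -1.37 in AT, -0.61 in CT and -3.52 in SM (edgeR adjusted p = 0.592, 0.64 and 0.0876). ENSFCAG00000045734, tumor-only lower, had 15.7, 45.2, 11.8, 24.3, 18.2, 8.49 and 15.5 CPM in C2 tumors and 0.143 to 1444 in C1 tumors, with a C1 median of 23.4. All C2 tumors lay within the C1 range, and the log2 difference of -3.33 came with 5 C1 tumors at 248.7 CPM or more. With sex as a covariate it was -1.02. In pooled NT it was -0.36 (SE 0.40, limma adjusted p = 0.603).

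**Figure D5:**
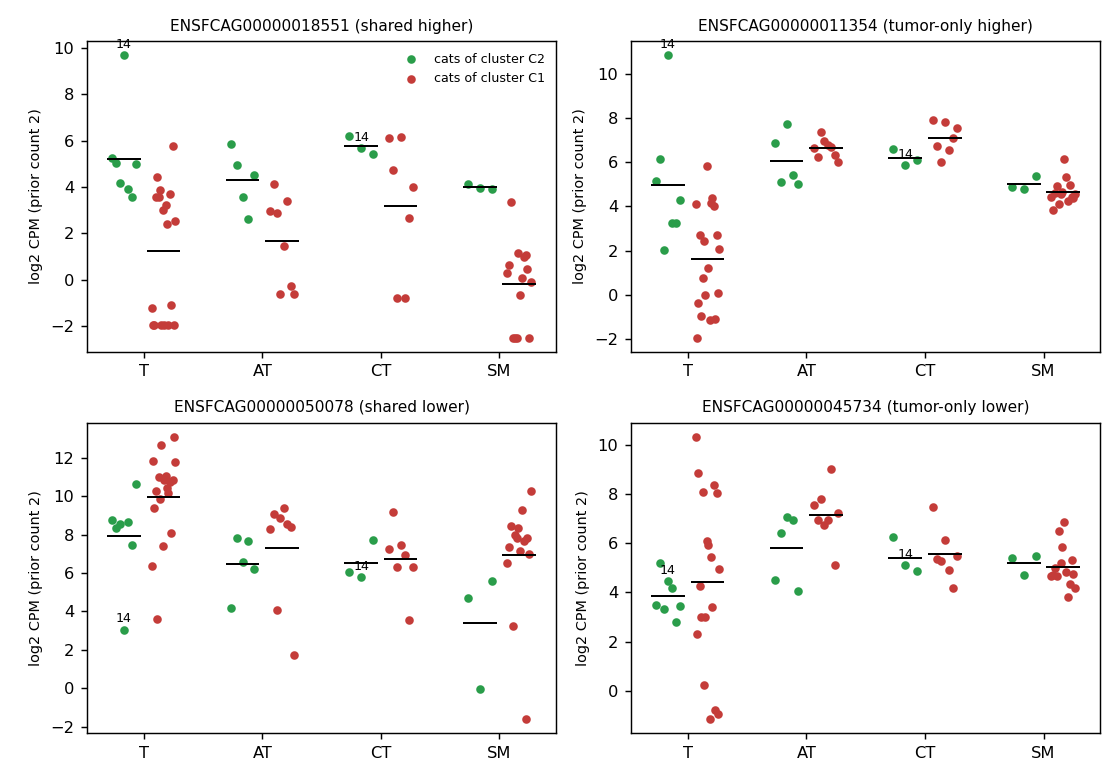
Log2 CPM (prior count 2) of the 4 identifiers in each C2 and C1 library of T, AT, CT and SM, with black lines at the group means and the libraries of cat 14 numbered. The tumor of cat 14 stands far above the other tumors for both higher identifiers, and C1 tumors span the C2 tumors for ENSFCAG00000045734.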

How the data were processed

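RNA was measured by sequencing of FFPE tissue isolated by LCM, with stranded total RNA libraries. The values the authors deposited are whole-number counts by gene, one table per library. Their methods state trimming with Trimmomatic and quantification with Kallisto, whereas their processing notes in GEO name STAR and featureCounts; which made the counts, and the strand setting, are not given in the sources used here, and reads shared by similar or overlapping genes make single identifiers uncertain.

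C2 and C1 libraries were compared in edgeR 4.0.16 (R 4.3.3) with TMM scaling, filterByExpr by cluster and, in NT only, glmQLFTest. Pooled NT was fitted with limma 3.58.1 (voom, tissue as a term, cat as a block). Numbers in the labels mark one cat each, so that same-numbered libraries are paired; deviations from the group means correlated between T and NT of a cat with medians of 0.0936 (AT), 0.0894 (CT) and 0.0746 (SM). Adjustment was by Benjamini-Hochberg over all genes tested. CPM used library totals; log2 CPM used TMM and a prior count of 2. Alternatives were DESeq2 1.42.0, no TMM, other filters, thinning to 847003 counts, a sex covariate and libraries left out. Each library is from a different cat within its tissue. Library totals limit precision, and intervals over libraries do not cover how clusters were drawn. Gene lists by symbol could not be applied. The 4 identifiers followed from a rule on tumor difference and mean count. Members, lists and tests were chosen with earlier results of these data known. Scripts were tested on simulated data.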

Additional observations from a re-analysis of the deposited data

Results flagged for a closer look

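In 13 comparisons of a group of 4 to 10 libraries with its own most extreme member, 3 values stood apart, where chance gives about 0.65 (1 in 20). The AT library of cat 5 in C1 accounted for 2 of them. Its counts on the genes without a count in C3 came to 1147.9 CPM, with the next C1 library at 94.5, and its median shift over the genes higher in C2 tumors was 1.23 on the log2 scale, with the next at 0.02. The other was the total of the CT library of cat 21 in C1, at 863878 counts, where the next smallest C1 total in CT was 3045884.

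The C2 to C1 difference differed between AT, CT and SM for 32 of 13902 genes by the interaction of cluster and tissue (limma, adjusted p under 0.05).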

How the results depend on the processing

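Of 423 values under an alternative, 351 stayed within 1.5 times the main value (for single identifiers, within 1 SD) and 72 moved further. A reversal could be scored only for the log2 differences of the 4 identifiers, and 0 of these reversed. For gene counts, higher and lower were scored apart. A turn of the majority, as in CT with the filter that both clusters had to pass (335 higher and 473 lower), was thus not scored as a reversal. Counts are given as higher and lower genes. DESeq2 gave 340 lower in T and 107 and 4 in AT. Without TMM there were 185 lower in T, 251 in CT, 12 in SM and 3 in pooled NT, and 488 tumor-only higher, 73 tumor-only lower and 2 shared lower genes. Without a low-count filter there were 6900 higher in T, 1030 and 20 in AT, 5301 higher in CT and 4637 and 189 in SM. With 10 counts in a fraction of at least 0.5 of the libraries of each cluster there were 1203 and 388 in T, 335 and 473 in CT, 73 and 0 in SM, and 442 higher in pooled NT; 151 genes were shared higher (32.2%), 8 shared lower, 163 tumor-only lower and 95 NT-only higher. Thinning gave 589 and 253 in T, 1797 higher in CT, 40 and 0 in SM, and 784 and 54 in pooled NT, with 66 shared higher (28.4%), 101 tumor-only higher, 81 tumor-only lower and 100 NT-only higher genes. A sex covariate gave 0 and 7 in CT, 7 and 0 in SM, and 8 lower in pooled NT. The fit without the cat as a block gave 2742 higher and 27 lower in pooled NT, and edgeR without the block 45 lower. Without the AT library of cat 5, 65 genes were higher in AT. Over genes tested in T and pooled NT alone, 1614 were shared (76.3%); this set and the values of pooled NT, genes without a count in C3 and level bins without the library of cat 5 were chosen after seeing the data.

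Leaving out each library in turn, higher and lower counts ran from 2885 to 3591 and 492 to 897 in T, 0 to 65 and 0 to 0 in AT, 2257 to 3300 and 453 to 871 in CT, and 989 to 2348 and 8 to 274 in SM. Lowest and highest in SM were those without cats 11 and 12, and the 453 in CT that without cat 13. Leaving out each C2 cat in pooled NT gave 2326 to 3166 higher and 11 to 62 lower, 823 to 1014 shared higher (65.4 to 68.5%), 236 to 289 tumor-only higher, 10 to 33 shared lower, 208 to 414 tumor-only lower and 301 to 403 NT-only higher genes; 62 and 33 were without cat 15 and 11 and 10 without cat 14. By construction, the stricter filter and the thinning test fewer genes, and leave-one-out fits use fewer libraries; other causes were not tested. Small C2 totals limit what could be seen of low genes.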
